A study of Mus musculus with 8 samples.

Results

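Beside the probes of named transcripts, the microarray used here carried 16194 probes designed to genomic intervals. Such a probe has no transcript accession: its target is given only as a chromosome, a start, an end and a strand letter, F or R, for example chr6:52046805-52072744_F. Positions are those of the mouse build mm9 (NCBI37), which the array headers name. An interval probe was taken as measured when at least 1 of the 4 groups had it well above background in both of its samples, as judged by the scanner software. This held for 6786 of the 16194 interval probes (41.9%), out of 55681 non-control probes of all kinds. Of the 39487 other probes 64.9% met the same rule.

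RNA from outside annotated genes comes from several kinds of source. Long noncoding RNAs have their own promoters and are often spliced, some serve as precursors of microRNAs or small nucleolar RNAs, and others are made at enhancers or run past the end of a neighbouring gene. Many are made in few cell types and at low levels, and in embryonic stem cells (ES cells) they have been studied as a layer of the pluripotency programme. Imprinted clusters, in which genes are expressed from the maternal or the paternal chromosome only, are among the best known sources, and their noncoding RNAs can be switched off during culture of ES cells.

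All 8 samples were mouse ES cells without H-Ras and N-Ras (both -/-) and with the RERTert/ert allele, in which 4-hydroxytamoxifen (OHT) activates the Cre recombinase and so leaves the cells without RAS. RAS feeds the MAP kinase ERK, and ERK keeps ERF, a repressor of the ETS family of transcription factors, out of the nucleus. The 4 groups were ERF-WT untreated, ERF-WT with OHT, ERF-KO untreated and ERF-KO with OHT, with 2 arrays each, called biological replicates in the labels, and OHT was given for at least 2 days. The cells came from 4 pools, A1 and B1 of ERF-WT and A2 and B2 of ERF-KO, with 2 clones mixed in a pool, and every pool was sampled without and with OHT. With 2 arrays in a group, their number limits the precision. No group given OHT keeps RAS, so OHT itself and the loss of RAS cannot be told apart.

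Levels are log2 signals relative to each array's 75th percentile, and changes are differences of these levels. No label names a slide, and the array barcodes in the headers are taken here to name slides. By these, slide 1 held 6 of the arrays and both arrays of pool B1 lay on slide 2. A difference between pools A1 and B1 therefore cannot be told apart from one between slides. Markers of ES cells were measured on all arrays for 12 of 12 genes, with array medians from 3.70 to 5.61, and those of fibroblasts or feeders for 8 of 10, with array medians from -1.76 to -0.74. Of the latter Col1a1, Col1a2 and Thy1 were bright on all arrays kept, between 1.96 and 4.45, Dcn was well above background on 6 arrays and Lum on 0. Erf read 4.88 and 5.22 in untreated ERF-WT and 4.79 and 4.73 with OHT. In pool A2 it read 3.26 untreated and 3.61 with OHT, whereas in pool B2 it read 5.43 and 5.07, at the level of ERF-WT. Whether this probe falls inside the deleted part of the gene is unknown here, and the group is called the labelled knockout below. Hras, which the genotype lists as lost, still gave 2.46 to 2.97, and Nras, also listed as lost, gave 0.63 to 1.85, again from probes of unknown position in the gene. Dusp6, a phosphatase that switches ERK off and reports its activity, read 4.65 and 4.76 in untreated ERF-WT and 2.44 and 2.41 with OHT, and 5.12 and 5.03 against 3.06 and 2.90 in the labelled knockout.

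The 6786 measured probes belong to 3092 combinations of interval and strand, to 2443 intervals, and to 1620 loci once overlapping intervals are joined. The median interval with a measured probe is 9951 bases long. An interval and strand was covered by a single measured probe in 1358 cases, by 2 in 718 and by 3 or more in 1016, and the most was 10. Probes of an interval share a locus and are not replicates of a condition. Of the measured probes 3274 had the strand letter F, 3505 had R and 7 had none.

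The median level of these probes was -3.16, a signal that depends on the probe as well as on the RNA. Well above background on all 8 arrays were 4192 of them (61.8%), against 83.6% of the other probes that met the rule. Just inside the rule, 69 probes passed on 2 arrays, and 2525 on 3 to 7. Just outside it, 2926 interval probes were well above background on 1 to 4 arrays, and 6482 on none. The share of interval probes well above background ran from 34.5% on an array of pool B1 to 48.6% on an array of pool A1. Since every group holds an A pool and a B pool, the rule leaves out a probe that is on in the A pools alone: 102 probes of 82 interval and strand combinations were well above background on all 4 A arrays and on no B array, and 6 probes the other way round. At least 1 array was left out for 1023 of the measured probes, mostly because the spot lay in a dark area, which covered between 0 and 8.14% of the spots of an array.

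The first question is what OHT did to these RNAs in cells that keep ERF. With limma on the 4 group means, which ignores that a pool gave both samples of a pair, 0 interval probes passed in ERF-WT at an adjusted p of 0.05 (Benjamini-Hochberg over all probes tested; percent called over all probes 0), and 439 had an unadjusted p under 0.05. With the pools as a block and a spread moderated along the signal level, 324 of 6786 interval probes passed (4.77%), 96 of them higher and 228 lower, where 10.7% of all probes passed, 4.99% higher and 5.70% lower. With the pools as a block but the plain spread of limma, which is moderated too but not along the signal level, 0 passed in ERF-WT and 0 in the labelled knockout (1188 and 1149 at an unadjusted p under 0.05). Each rise or fall below therefore rests on moderating the spread along the signal level. The count also moved with the arrays and the processing: it was 105 and 70 without the untreated A1 or B1 array, 85 and 61 without the OHT array of A1 or B1, 101, 77, 596 or 563 without pool A1, B1, A2 or B2, 149 without masking dark areas, and 1221 with normexp background correction, of which 8.44% were higher instead of 29.6%. Over all probes 1696 passed without masking and 7073 with normexp, against 3467 in the main processing. The median change of the interval probes was -0.10 in ERF-WT, -0.03 after quantile normalization and -0.30 with normexp.

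Of the 159 interval and strand combinations with a call and at least 2 measured probes, 83 had at least 2 calls. In 39 interval and strand combinations at least 3 probes passed, with only falls in 29 and only rises in 9, and in 18 all measured probes passed in 1 direction. The interval chrX:50087925-50101700, strand R, had the largest median change among them. The median level of its 7 probes was -0.37 and -0.43 in untreated pools A1 and B1, and -2.13 and -2.10 with OHT. All 7 probes fell in ERF-WT, with a median change of -1.86. In the labelled knockout the median level went from -1.69 to -2.60 in pool A2 and from -0.88 to -1.98 in pool B2, and 4 of the 7 fell, with a median of -0.84.

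The interval chr6:52046805-52072744, strand F, showed both a response to OHT and a difference between pools. Its 6 probes had median levels of 0.63 and 1.17 in untreated ERF-WT and of -0.87 and -0.52 with OHT, and all 6 fell, with a median of -1.64. In the labelled knockout 3 of the 6 fell, the most by 1.13 ± 0.12 (SE; limma adjusted p 0.00222 in the fit on pools). Pool A2 lay below pool B2 in each condition, at -0.86 against 1.18 untreated and at -1.99 against 0.20 with OHT, so the untreated A2 sample was lower than the B2 sample with OHT.

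Other intervals fell as a whole in ERF-WT. At chr5:123439974-123448354, strand F, the median of 3 probes went from 1.21 and 0.68 to -0.25 and -1.14, and all 3 fell in both genotypes (medians -1.62 and -1.02). At chr13:98062189-98066613, strand F, it went from -1.47 and -1.32 to -3.51 and -2.61, with 3 of 3 lower. At chr4:129380903-129390686, strand R, it went from 0.64 and 0.44 to -0.84 and -0.93, with 3 of 3 lower. In these intervals each OHT array of ERF-WT was below both untreated ones, which their choice for called falls in the same samples favours. Of single probes on all 8 arrays the largest fall was at chr18:38776580-38841080, strand R, which went from -1.32 and -0.66 to -4.23 and -3.05 in ERF-WT, by -2.65 ± 0.21 (SE; limma adjusted p 0.000155 in the fit on pools), and from -1.42 and -0.80 to -2.94 and -1.72 in the labelled knockout (adjusted p 0.0122). The median of the 3 measured probes of that interval and strand went from -2.83 and -3.99 to -4.23 and -4.71 in ERF-WT. In the labelled knockout this median went from -2.98 to -3.29 in A2 but from -3.09 to -2.64 in B2, so the fall there was not shared by the interval as a whole.

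In ERF-WT fewer intervals with at least 3 calls rose than fell. The largest median rise among intervals with at least 3 calls was at chr8:12535648-12544923, strand R, where the median of 4 probes went from -2.58 and -2.49 to -1.11 and -0.89 in ERF-WT and from -3.49 and -3.44 to -2.30 and -1.34 in the labelled knockout. There 3 of 4 probes rose in ERF-WT and 4 of 4 in the labelled knockout, with medians of 1.51 and 1.69. At chrX:100481826-100483511, strand R, all 3 probes rose in both genotypes, with medians of 0.77 and 1.08. Of the rises that rest on a single probe, chr2:33500594-33501874, strand F, went from -3.33 and -3.32 to -1.17 and -1.56 in ERF-WT, a change of 1.95 ± 0.205 (SE; limma adjusted p 0.000619 in the fit on pools), and rose by 0.96 in the labelled knockout. The other measured probe of that interval changed by 1.16 in ERF-WT and did not pass (adjusted p 0.0589). A probe at chr14:62280837-62283960, strand R, was not well above background without OHT, with its array of untreated pool A1 left out, and read -2.78 and -2.80 with OHT. It was at least 2.84-fold higher in ERF-WT and at least 2.80-fold higher in the labelled knockout (limma adjusted p 0.0187 and 0.0247 in the fit on pools), where the bound sets the OHT signal against the dimmest signal well above background of the untreated arrays. The other measured probe of that interval and strand did not pass. By the same bound, a probe at chr14:62294849-62301165, strand R, was at least 3.36-fold higher in ERF-WT, and 1 at chr14:33923944-34003394, strand F, at least 5.87-fold higher in the labelled knockout (adjusted p 0.0169 and 0.0211). Of the 3 measured probes of the latter interval and strand no other passed as a rise in the labelled knockout. The probes named here as dim without OHT met the measuring rule through other groups in which they were brighter. That choice favours a rise, so their p-values are not independent support for it.

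**Figure D1:**
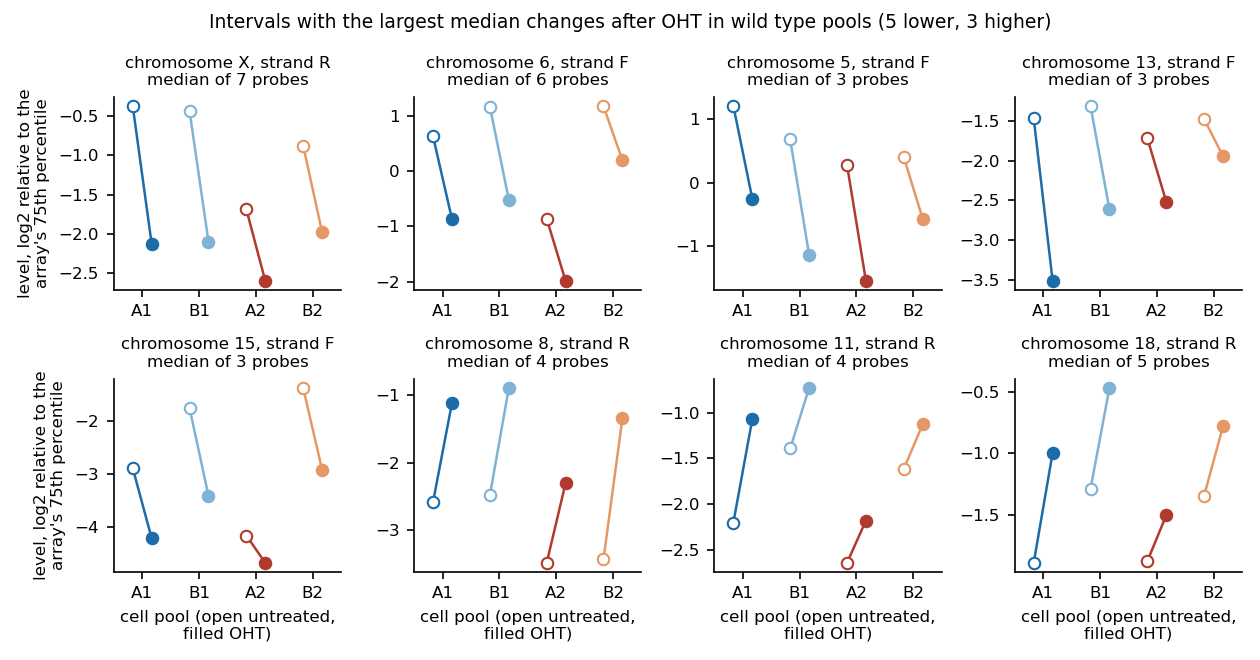
Median level of the measured probes of 8 intervals (vertical axis, log2 relative to the array's 75th percentile) in each of the 4 cell pools (horizontal axis); open circles are untreated and filled circles OHT samples of a pool, joined by a line, with 1 array per circle. The first 5 panels are the intervals with the largest median falls in ERF-WT among those with at least 3 calls, and the last 3 those with the largest rises. The line runs the same way in A1 and B1 in each panel, which this choice favours, and in A2 and B2 as well.

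In the labelled knockout 0 interval probes passed on the group means (percent called over all probes 0; 412 had an unadjusted p under 0.05). With the pools as a block 219 of 6774 passed (3.23%), 114 higher and 105 lower, where 8.50% of all probes passed, 2.92% higher and 5.58% lower. Under normexp 340 passed, 41.8% of them higher instead of 52.1%, where 4433 of all probes passed. Without masking dark areas 31 passed, where 394 of all probes did. The direction turned with the pool left out, with 188 of 237 calls higher without pool A2 and 41 of 217 without pool B2, and likewise without a single array of those pools: 178 of 224 and 174 of 221 were higher without the untreated or the OHT array of A2, and 42 of 226 and 40 of 215 without that of B2. The median change was 0.11, and 0.01 after quantile normalization and -0.01 with normexp. The median level of the interval probes went from -3.12 to -3.15 in pool A2 and from -3.28 to -2.88 in pool B2, and its part in these counts was not tested.

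A probe of chr1:84947500-85045150, strand F, read -4.60 and -4.38 untreated and -2.30 and -1.94 with OHT, the latter at the ERF-WT level of -1.86 to -2.30. It rose by 2.37 ± 0.22 (SE; limma adjusted p 0.00104 in the fit on pools) and changed by 0.27 in ERF-WT (adjusted p 0.50). The other 2 measured probes of that interval and strand did not pass. At least 3 probes passed in 15 interval and strand combinations, with only falls in 11 and only rises in 4. The 3 with the largest median falls were those on chromosomes 5, 6 and X described above, followed by chr8:67542714-67561694, strand F, where 4 of 5 probes fell in each genotype, with medians of -0.68 in ERF-WT and -0.83 in the labelled knockout.

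Of the probes that rose in ERF-WT 33 also rose in the labelled knockout, which is 34.4% of the first and 28.9% of the second list. Of those that fell 70 did so in both, or 30.7% and 66.7%. Among the other probes the shared rises were 35.6% and 65.2% of the lists and the shared falls 50.5% and 48.2%. No interval probe and 7 other probes passed in opposite directions. Over 6774 interval probes the 2 changes correlated at r = 0.31, against 0.49 over 25586 other probes, and the changes share no array. The difference between the genotypes was tested directly as well. On the group means 0 interval probes passed it (percent called over all probes 0; 255 with an unadjusted p under 0.05), and with the pools as a block 0 passed (percent called 0; 426 with an unadjusted p under 0.05), so no interval is shown to respond differently. The count in that fit was 1 with quantile normalization and 103 with normexp, where 19 and 926 of all probes passed.

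**Figure D2:**
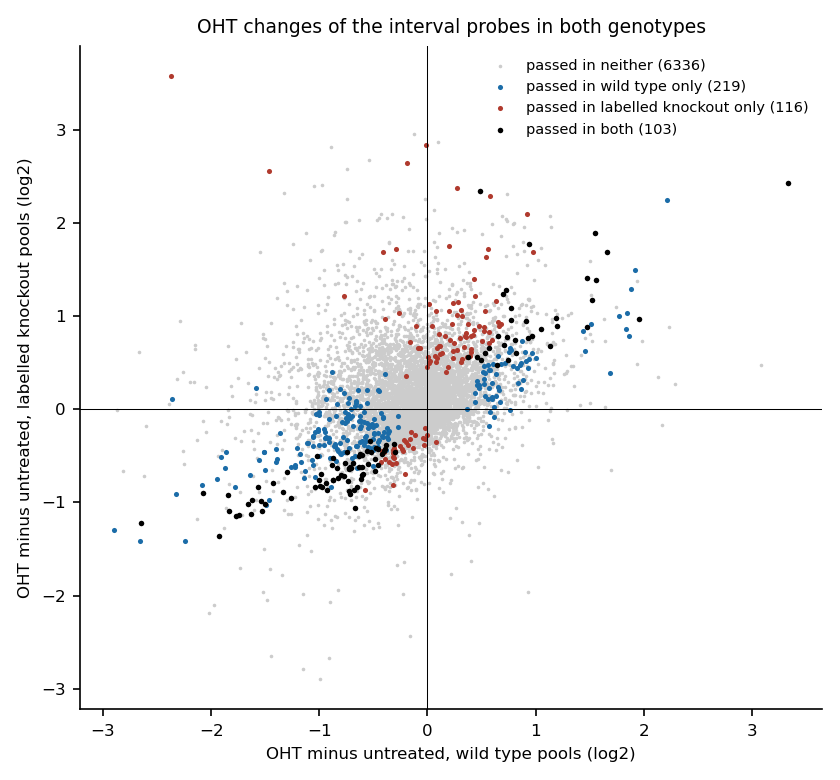
Change after OHT of each interval probe in ERF-WT (horizontal axis) and in the labelled knockout (vertical axis), both as log2 differences from the fit on pools; each point is a probe, coloured by where it passed. The 103 probes that passed in both (black) lie at the lower left or the upper right, and none lies at the upper left or the lower right.

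Called probes whose intervals follow each other within 100 kb formed 31 groups of at least 3 falls and 9 groups of at least 3 rises in ERF-WT, and 13 and 6 in the labelled knockout. Many of these groups are probes of a single interval or of a pair of them, and at least 3 interval and strand combinations took part in 8 of the falls and 0 of the rises in ERF-WT, and in 4 and 2 in the labelled knockout. The largest lay at chr12:110738120-110988678, a stretch of 250559 bases with 54 measured probes of 16 interval and strand combinations. In ERF-WT the median of the 54 went from -2.16 to -2.84 in pool A1 and from -2.97 to -3.65 in pool B1. In this stretch 20 probes fell in ERF-WT and 0 rose, with a median change of -0.64 over the 54. In the labelled knockout the medians were -2.05 and -2.41 untreated and -2.06 and -2.18 with OHT, 0 probes passed and the median change was 0.03. The difference between genotypes passed for no probe there. The 2 wild type pools also stood apart in this stretch: 33 of the 54 probes were higher in A1 than in B1 and 0 lower, with a median difference of 0.95, and this comparison is also one between slides. Between A2 and B2, which share a slide, the median difference was 0.00, with 3 probes higher and 2 lower.

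General knowledge of the mouse genome places the imprinted Dlk1-Dio3 cluster in this part of chromosome 12, with the maternally expressed noncoding RNAs Meg3 and Mirg and the paternally expressed Dlk1. An mm9 annotation was not used here, so the overlap was not checked, and these genes were chosen after the values of the intervals were seen. Transcript probes of these genes, which the RefSeq table also places on chromosome 12, gave the following values. The brightest Meg3 probe read 6.14 and 4.66 in untreated A1 and B1, 5.39 and 3.94 with OHT, and between 5.31 and 5.89 in the 4 samples of the labelled knockout. It fell by 0.74 ± 0.07 in ERF-WT (limma adjusted p 0.000448 in the fit on pools) and changed by -0.01 in the labelled knockout (adjusted p 0.941). Another Meg3 probe fell in both genotypes, by 1.37 and by 0.67. Mirg, the host of a large group of microRNAs, fell by 0.90 in ERF-WT and changed by -0.22 in the labelled knockout (adjusted p 0.173), and it was 1.11 higher in A1 than in B1. Dlk1 fell in both genotypes, by 0.91 and by 0.75 for its brighter probe, and was higher in A than in B in both. The remaining Meg3 probe fell by 0.60 in ERF-WT and changed by 0.32 in the labelled knockout (adjusted p 0.128). All 3 Meg3 probes were higher in A than in B, by 1.31 to 1.84 in ERF-WT and by 0.44 to 0.85 in the labelled knockout. Each of these Meg3 differences passed in the fit on pools, also between A2 and B2, which share a slide. Mirg differed by -0.06 between A2 and B2 and did not pass. In ERF-WT the median of the interval probes and the brightest probes of Meg3, Mirg and Dlk1 were lower in B1 than in A1 and lower with OHT.

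**Figure D3:**
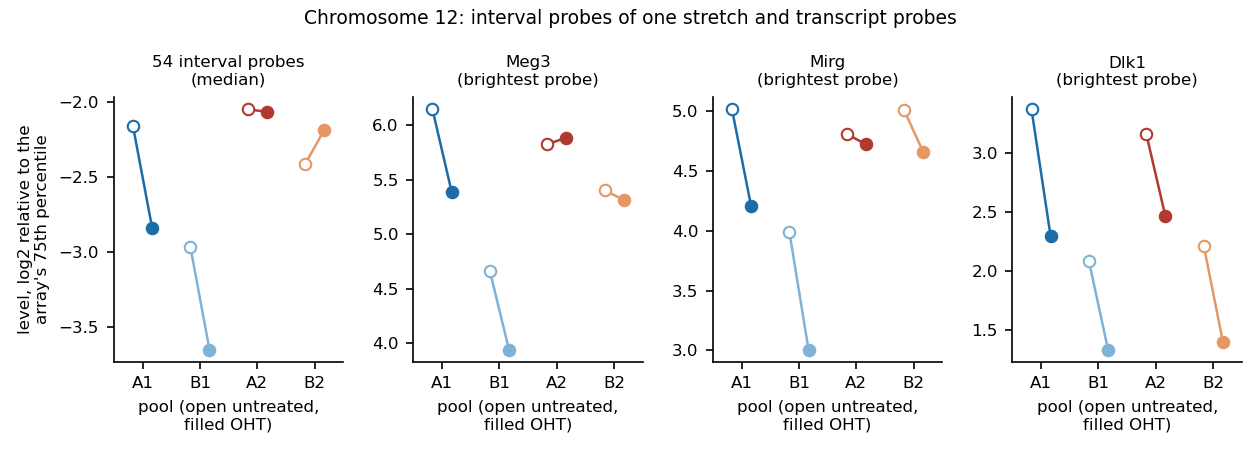
Levels (vertical axes, log2 relative to the array's 75th percentile) in the 4 cell pools (horizontal axes) of the 54 interval probes of the chromosome 12 stretch, as their median, and of the brightest transcript probe of Meg3, Mirg and Dlk1; open circles are untreated and filled circles OHT samples, 1 array each. Interval probes, Meg3 and Mirg are lowest in pool B1 with OHT, and the lines of A2 and B2 are flatter than those of A1 and B1 in all but Dlk1.

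Further stretches lie where general knowledge places a known noncoding RNA, with the same reservation. At chr7:67111261-67120697 6 of 7 measured probes fell in ERF-WT and 3 in the labelled knockout, with medians of -0.86 and -0.45. The 3 probes of Snrpn, an imprinted gene of chromosome 7 whose transcript extends into a long noncoding RNA that carries small nucleolar RNAs, fell by 0.94 to 1.09 in ERF-WT and by 0.95 to 1.12 in the labelled knockout, where 1 of them had its A2 array with OHT left out. At chr14:115443612-115445950, strand F, the median of 3 probes went from 2.44 and 1.89 to 1.78 and 1.41 in ERF-WT, and 3 of 3 fell. Mir17hg, the host transcript of the miR-17-92 cluster of growth-promoting microRNAs on chromosome 14, fell by 0.52 in ERF-WT and changed by -0.35 in the labelled knockout (limma adjusted p 0.0547 in the fit on pools). At chr15:61919018-62102500 7 of 28 probes fell in ERF-WT and 0 in the labelled knockout, with medians of -0.52 and 0.01. Of the 2 probes of Pvt1, a noncoding RNA next to Myc on chromosome 15, the brighter fell by 0.61 in ERF-WT and changed by 0.15 in the labelled knockout, where its array of pool B2 with OHT was left out. The other Pvt1 probe changed by -0.46 in ERF-WT and did not pass (adjusted p 0.0817).

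The largest group of rises after OHT lay at chr19:5798135-5835940, where 8 of 20 probes rose in the labelled knockout and 2 in ERF-WT, with medians of 0.56 and 0.19. There chr19:5798135-5800557, strand R, had median levels of 3.83 and 3.68 in untreated ERF-WT and 4.14 and 4.08 with OHT, and in the labelled knockout went from 4.21 to 4.78 in A2 and from 3.46 to 4.01 in B2, where 3 of 3 probes rose. Malat1 and Neat1, abundant nuclear noncoding RNAs that are neighbours on chromosome 19, had transcript probes as well. Neat1 rose by 0.59 in ERF-WT and by 0.76 in the labelled knockout, while Malat1 changed by -0.02 and by 0.39 (adjusted p 0.906 and 0.0955), with the A2 array with OHT left out for it.

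At chr11:95627874-95640824 both strands fell together. Of 9 measured probes of strand F 7 fell in ERF-WT and 6 in the labelled knockout, with medians of -0.67 and -0.63, and of 7 probes of strand R 4 fell in each, with medians of -0.69 and -0.57. The median level of strand F went from 0.68 and 0.78 to 0.08 and -0.05 in ERF-WT, and that of strand R from -0.92 and -0.68 to -1.42 and -1.16. This was rare. Of 1067 intervals with probes for both strands 649 had both measured, 325 had 1 and 93 had neither. Calls on both strands occurred in 4 of the 649 in ERF-WT, in the same direction in 3 and in opposite directions in 1. In the labelled knockout they occurred in 2, in the same direction in 2. Only 1 strand had a call in 70 and 64 of the 649, and neither had one in 575 and 583.

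Changes of probes were more alike within a strand than across the strands of an interval. Over 1013 pairs of probes of 1 interval and strand, measured on all 8 arrays, changes after OHT correlated at r = 0.60 in ERF-WT and, over 1011 pairs, at 0.45 in the labelled knockout. Over 360 pairs with 1 probe on each strand, the correlations were 0.08 and 0.13. For the differences between pools A and B the values were 0.56 and 0.73 within a strand, and 0.05 and 0.14 across strands. The share of calls after OHT by the length of the interval was, in ERF-WT, 4.46% in the shortest, 5.31% in the middle and 4.55% in the longest of 3 equal classes, and in the labelled knockout 3.23%, 3.67% and 2.79%. Between A2 and B2 it was 20.9%, 19.3% and 18.8%, and between A1 and B1 16.7%, 16.1% and 18.7%.

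The next comparison set the labelled knockout against ERF-WT in each condition. On the group means 0 interval probes passed without OHT and 0 with OHT (percent called over all probes 0 in both), and 359 and 232 had an unadjusted p under 0.05. The median difference was -0.12 without OHT and 0.08 with OHT, and -0.02 and 0.01 after quantile normalization. With normexp they were -0.26 and 0.03. In the main processing the second was 0.28 without the A2 array with OHT and -0.08 without that of B2. Among the smallest p-values without OHT was the probe of chr1:84947500-85045150, strand F, described above, which was lower by 2.21 in the labelled knockout with a limma adjusted p of 1.00. With OHT the smallest p was that of a probe at chr6:5311375-5328075, strand R, which read -7.43 and -6.65 in ERF-WT and -3.15 and -3.84 in the labelled knockout, at least 2.59-fold higher, with a limma adjusted p of 0.904. It was well above background on 3 arrays and met the measuring rule only through the labelled knockout with OHT, the group in which it is higher. That choice favours the difference, so its fold and p-value are not independent support for it. No difference between genotypes was shown for these RNAs, and the spread between the pools of a genotype, described next, enters each of these tests.

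More interval probes passed between pools of the same labelled genotype than after OHT. Between A2 and B2, both of the labelled knockout and on the same slide, 1335 of 6785 interval probes passed (19.7%), 524 higher and 811 lower in A2, where 38.1% of all probes passed, 13.9% higher and 24.2% lower. The direction turned with the array left out, with 384 higher and 1362 lower without the untreated A2 array and 404 and 1442 without that of B2, but 555 and 482 without the OHT array of A2 and 541 and 456 without that of B2. Erf was lower in A2 than in B2, as given above. Of the ES cell markers 10 of the 11 kept on all 4 arrays were lower in A2 than in B2 in both conditions and 0 higher, and 6 of 8 fibroblast or feeder markers were higher in both and 0 lower. Pou5f1 read 3.68 in A2 and 5.29 in B2 without OHT, and Col1a2 3.68 and 3.19. Without OHT the fibroblast or feeder markers Thy1, at 2.23 in A2 and 2.87 in B2, and Prrx1, at -2.62 and -2.48, ran the other way. The log2 of the summed level was 8.41 and 8.47 in A2 and 9.18 and 9.15 in B2 over 11 ES cell markers, and 4.24 and 5.03 against 4.12 and 4.19 over 7 fibroblast or feeder markers. Lum, which is counted among the 6 higher in A2, was well above background in neither. The part of Erf and of these markers in the pool difference was not tested. Between A1 and B1 1166 of 6786 passed (17.2%), 791 higher and 375 lower in A1, where 27.4% of all probes passed, 13.4% higher and 14.0% lower. There 8 of 10 fibroblast or feeder markers, the dim Lum among them, were lower in A1 in both conditions, and 5 of 12 ES cell markers. Under normexp the second count was 2964, with 17.0% higher instead of 67.8%, so its direction depends on the background correction. With the plain spread 799 and 282 passed, and without the untreated A1 or B1 array, or the OHT array of A1 or B1, 404, 417, 428 and 472 passed between A1 and B1. Over all probes the plain spread passed 6311 between A2 and B2 and 1384 between A1 and B1, and normexp 14363 between A1 and B1. In both genotypes 184 interval probes were higher in A and 223 lower, which is 23.3% and 59.5% of the A1 and B1 calls and 35.1% and 27.5% of the A2 and B2 calls. Another 88 passed in opposite directions. Among the other probes 1423 were higher in both (40.1% and 35.7%), 2780 lower (66.6% and 39.6%) and 691 opposite.

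The largest of these differences were close to a switch. At chr1:85117750-85129200, strand F, the median of 3 probes was 1.08 and 0.62 in A1 and -4.49 and -4.13 in B1, without and with OHT, and 0.54 and 0.53 in A2 against -4.83 and -4.30 in B2. The dimmest signals well above background on these B arrays were close to that, at -4.295 and -4.49 in B1 and -4.94 and -4.64 in B2. Sizes of the differences there are therefore uncertain. The largest difference there was 5.16 ± 0.21 (SE) between A1 and B1 and 5.28 ± 0.21 between A2 and B2, for the same probe (limma adjusted p 8.23e-07 and 5.28e-07), while the dimmest of the 3, for which the untreated B2 array was left out, did not pass between A2 and B2. At chr5:14923900-15062725, strand F, the median of 4 probes was -0.78 to -1.37 in the A samples and -3.82 to -4.66 in the B samples, and all 4 passed in both genotypes. At chr15:96984422-97000322, strand R, it was -0.01 to -0.80 against -3.10 to -4.92. The lowest B values of the intervals on chromosomes 5 and 15 were also close to the dimmest signals given above, so those sizes are uncertain as well. In each of the intervals on chromosomes 1, 5 and 15 the 4 A samples lay above the 4 B samples, whatever the genotype and treatment, which their choice for large pool differences favours.

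Some switches belonged to a single probe. A probe of chr1:87343550-87362900, strand F, read 0.99 to 1.32 in the 4 A samples and -4.55 to -3.51 in the 4 B samples, while the other measured probe read -4.91 to -4.50 and -7.07 to -4.34 and did not pass. At chr15:79795261-79796945, strand R, a probe read 0.88 to 1.44 in the A samples and -4.17 to -3.74 in the B samples, while the other measured probe of that interval and strand differed by 0.57 and 0.92. At chr5:23195569-23218551, strand R, a probe read -6.66 and -7.13 in A1, not well above background, 2.50 and 2.28 in B1, -0.41 and -0.71 in A2 and 2.41 and 2.18 in B2. It was at least 164-fold lower in A1 than in B1, by the bound described above. The brightest probe of the same interval and strand read 5.43 to 5.71 in the A samples and 4.99 to 5.17 in the B samples. At chr16:25517037-25531362, strand F, 2 probes were not well above background in A1 and were at least 9.14-fold and at least 2.34-fold lower there than in B1.

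Other differences ran against A. At chr5:35975265-35982561, strand F, all 4 probes were lower in A than in B in both genotypes, with median levels of 0.73 to 1.78 in the A samples and 2.70 to 3.71 in the B samples. At chr6:54591416-54597566 10 of 10 probes were lower in A in both genotypes, with medians of -0.62 and -0.60. At chr8:74431707-74496948 9 of 19 were lower in A1 and 16 in A2. Higher in A were 15 of 22 probes at chr2:176583825-177257429 in A1 and 11 in A2, with median differences of 1.15 and 0.55.

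**Figure D4:**
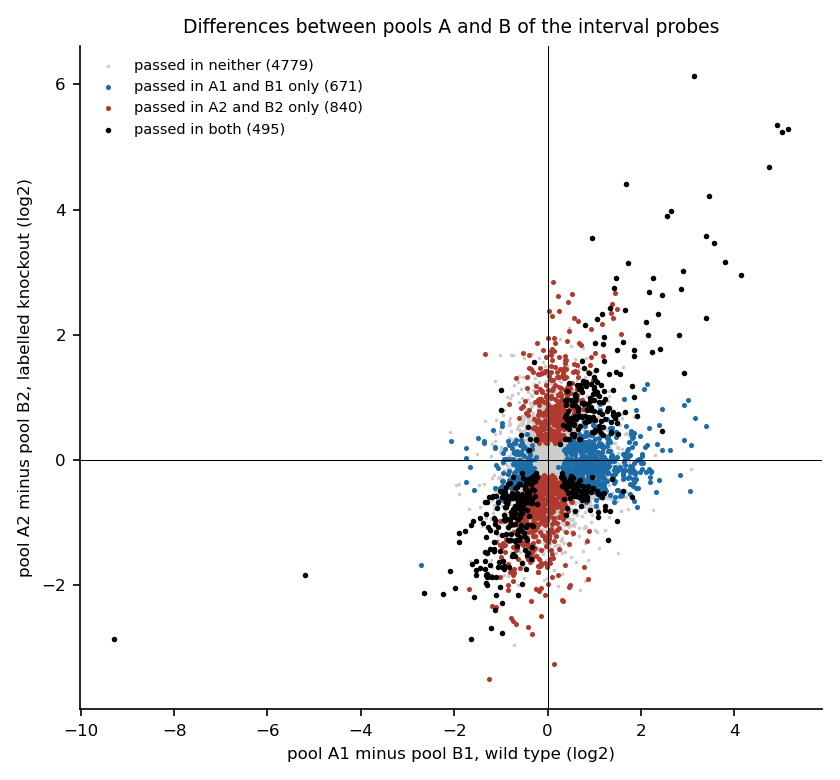
Difference between pools A and B of each interval probe in ERF-WT (horizontal axis, A1 minus B1) and in the labelled knockout (vertical axis, A2 minus B2), both as log2 differences from the fit on pools; each point is a probe, coloured by where it passed. The points farthest to the right are the switches at chromosomes 1 and 15, with 5.16 and 5.03 for A1 against B1, and the point farthest left is the single probe at chromosome 5, -9.28 in A1 against B1.

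The pool differences also varied by chromosome. Over probes measured on all 8 arrays, the median of chromosome 6 relative to that of all interval probes was -0.20 in A1 against B1 and -0.17 in A2 against B2, from 263 probes, and that of chromosome 8 was -0.18 and -0.19, from 309 probes. These were the lowest chromosome medians in both comparisons. Single array pairs gave chromosome 6 as the lowest of 20 chromosomes in 4 of 4 pairs, and chromosome 8 as the second lowest in 3 of 4 and the third lowest in the other. Probes of RefSeq transcripts showed larger shifts of the same sign, with -0.42 and -0.38 for chromosome 6 and -0.24 and -0.39 for chromosome 8. For OHT, chromosome 6 and chromosome 8 medians of the interval probes relative to that of all were 0.01 and 0.00 in ERF-WT, and -0.03 and -0.05 in the labelled knockout. The share of interval probes called after OHT in ERF-WT was highest on chromosome 12, with 34 of 346 (9.83%), where the stretch described above holds 20 of the 34. It was next highest on chromosome 11, with 25 of 317 (7.89%). Of those 25, 11 are falls at chr11:95627874-95640824 and 6 are rises at chr11:33414450-33450750. Both shares thus come largely from a few loci, and neither shows a change along a whole chromosome.

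**Figure D5:**
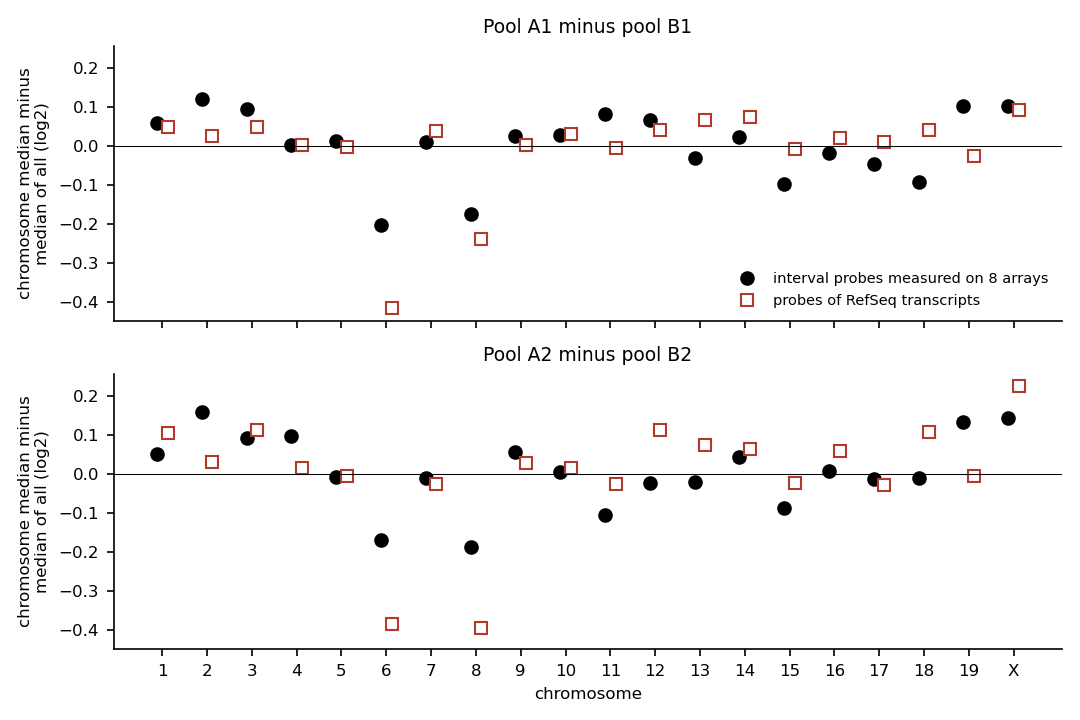
Median difference between pools A and B by chromosome (horizontal axis), as the log2 median of a chromosome minus that of all chromosomes (vertical axis), for A1 and B1 (top) and A2 and B2 (bottom); filled circles are interval probes measured on 8 arrays and open squares probes of RefSeq transcripts. Chromosomes 6 and 8 are lowest for both kinds of probe in both panels.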

How the data were processed

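RNA of 8 mouse ES cell samples was hybridised singly to one-colour Agilent arrays. The authors deposited scanner output: per the file headers, Agilent Feature Extraction 11.5.1.1 gave each spot a processed intensity (gProcessedSignal, background-subtracted, on a linear scale) and the deposited flags for signal well above background, saturation and non-uniformity. The series' value table was not used. From these, log2 of the intensity minus each array's 75th percentile was taken, spots in dark areas (local median residual under -0.5, in windows of 11 by 11 spots, grown by 5) and flagged as non-uniform or outliers were dropped, and spots of a probe were averaged. Interval probes are non-control probes whose name starts with chr. A probe entered the tests when it was well above background in both samples of some group (32420 of 55681 non-control probes). No spot was saturated.

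The main test was limma 3.58.1 (R 4.3.3) on 4 group means with moderated variances (eBayes) and Benjamini-Hochberg adjustment over all tested probes, at 0.05. The fit on pools, with each pool as a block and a trended, robust variance, was used for the pool contrasts and as an alternative for OHT. The pairing comes from the source names, which give 1 pool an untreated and an OHT sample. Over all tested probes, deviations of the paired samples from their group means correlated at 0.716 in ERF-WT and 0.559 in the labelled knockout. P-values measure the spread between these samples only. The fit on pools leaves 2 residual degrees of freedom, and its pool contrasts use the spread left within pools, not that between pools of a genotype. Scripts also used matplotlib 3.10.9, scipy 1.17.1, pandas 2.3.3 and numpy 2.4.6 under Python 3.11.15, and the fits were tested on simulated data.

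Named probes were, per comparison and direction, the 4 with the smallest p on the group means where none passed, and in the fit on pools the called ones with the largest change and the same sign in both pairs, at most 8 for OHT and 6 for the pools, besides called neighbours within 100 kb and the targeted genes, of which 1 is not reported here. Intervals with at least 3 calls, stretches and transcripts were chosen after the values were seen. The members and lists were chosen with earlier results of these data known. Other alternatives were quantile normalization, normexp, no mask, stricter or no filters, interval means, and leaving out arrays or pools. No sequence is printed, since an mm9 genome was not used here.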

Additional observations from a re-analysis of the deposited data

Results flagged for a closer look

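At 9 of the named interval probes the untreated to OHT change ran one way in both ERF-WT pools and the other way in both pools of the labelled knockout. For the difference between the changes, limma on the group means passed 0 interval probes (255 at an unadjusted p under 0.05), so none of these is shown to differ. The named probes include those with the smallest p for this difference, a choice that favours such opposite signs. Of the 9 probes 8 were well above background on 2 to 4 of 8 arrays, so the differences below include signals not above background and are not measured sizes.

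At chr6:5311375-5328075_R the log2 changes were -3.08 and -1.66 in A1 and B1 and 3.86 and 3.30 in A2 and B2, a fitted difference of 5.95 (limma adjusted p 0.867). ERF-WT with OHT and the untreated labelled knockout, at -6.65 to -7.43, were not above background there. The other measured probe of that interval did not show this, with pool changes of -0.93 in ERF-WT and -0.07 in the labelled knockout. At chr14:33923944-34003394_F the fitted difference was 4.02, from -2.08 and -0.85 against 1.72 and 3.39. At chr9:56914085-56914489_F it was 3.71, at chr17:38132217-38157667_R 3.24, at chr1:73664661-73911040_R 2.68 and at chr9:56910620-56919667_R 0.948. The other 3 ran the opposite way, higher with OHT in ERF-WT and lower in the labelled knockout: chr11:69184157-69201732_F with -2.89, chr13:51248372-51259297_F with -1.55 and chr17:74595885-74597555_R with -1.34.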

How the results depend on the processing

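Counts below are interval probes passing at an adjusted p of 0.05. On the group means 0 passed for OHT in either genotype, for the difference and for the labelled knockout against ERF-WT, under each alternative without a block. With the pools as replicate block and a trended spread the OHT counts were 324 in ERF-WT and 219 in the labelled knockout, and with the block and a plain spread 0 and 0. For the labelled knockout against ERF-WT no label says that pools of the same letter share an origin. Their deviations correlated at 0.494 untreated and 0.419 with OHT over all tested probes, a hint from 2 pairs only, and a replicate block gave 0 in both conditions (570 untreated and 510 with OHT at an unadjusted p under 0.05). Against the pool counts of 1335 (A2, B2) and 1166 (A1, B1), a plain spread gave 799 and 282 and interval means 446 and 416, and normexp gave 2964 for A1 and B1. Over all probes these were 6311 and 1384, 11483 and 8103, and 14363, against 12339 and 8889. In the fit on pools for OHT, in ERF-WT and the labelled knockout, normexp gave 1221 and 340, no mask 149 and 31, and interval means 95 and 80. Over all probes these were 7073 and 4433, 1696 and 394, and 3201 and 2607, against 3467 and 2749. Leaving out pool A1, B1, A2 or B2 gave 101, 77, 596 or 563 in ERF-WT. Leaving out single arrays gave 61 to 105 in ERF-WT, 215 to 226 in the labelled knockout, where the direction turned, 404 to 472 for A1 and B1, and 997 to 1846 for A2 and B2, where it turned too. The difference of OHT effects in the fit on pools (0) became 1 with quantile normalization, 103 with normexp, 1 with probes on all 8 arrays, 11 with no filter and 0 to 8 without single arrays. Over 96 named values, 1404 alternative values were computed, of which 1206 kept direction and side of the threshold, 186 lost the threshold, 7 passed it and 5 reversed. All 5 reversals were with normexp: chr9:96664617-96683617_R (difference, 0.046), chr17:74595885-74597555_R, chr5:113772200-113772326_F and chr8:73645975-73696275_R (labelled knockout against ERF-WT untreated, -0.083, -0.28 and -0.13) and chr5:136371885-136372424_R (OHT in ERF-WT, -0.000428). The cause of these changes was not tested. With 2 arrays per group and 61.8% of the measured interval probes well above background on all 8 arrays, array number and signal limit what can be told apart.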

Other observations

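Some interval probes that the measuring rule leaves out were on in 1 kind of pool. The 102 probes well above background on all 4 A arrays and on no B array were chosen for that pattern, which fixes the sign of their difference. Against B signals not above background it was 1.63 in the median and at most 7.19, and no size can be read from it. For the 6 probes with the opposite pattern the median was -1.96. For RefSeq transcript probes chromosome 8 was lower in A2 than in A1 by a median of -0.15 without and -0.17 with OHT relative to all chromosomes, and for interval probes by -0.10 and -0.13.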
